A study of Homo sapiens with 6 samples.

Results

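Small nucleolar ribonucleoproteins (snoRNPs) are the particles that modify ribosomal RNA, and the genes of their core proteins were described here together with those of 2 abundant nucleolar proteins. The members were 10 genes, taken by symbol from a table of 18398 genes. They were FBL, NOP56, NOP58 and SNU13 of the box C/D particle, DKC1, NHP2, NOP10 and GAR1 of the box H/ACA particle, and NCL and NPM1. RNA was sequenced from SUM159, a mesenchymal cell line from a human triple-negative breast cancer. The 2 groups were 3 libraries of cells stably overexpressing POGK from the pLVX vector, called POGK cells, and 3 libraries of cells with the empty vector, called control cells. The POGK gene derives from a pogo-like transposase and codes for a KRAB domain, which is known from repressors of transcription. The study asked which genes POGK regulates, and its title ties POGK to ribosome biogenesis. All cells were grown in Ham's F12 medium with serum, insulin and hydrocortisone. The labels name neither the promoter that drives POGK nor the number of clones, and they do not say that the replicates are separate cultures. The spread behind each p-value is therefore that of these libraries alone and may be technical.

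Each snoRNP holds a guide RNA that pairs with the RNA to be modified. In box C/D particles SNU13 binds the kink-turn of the guide RNA, NOP56 and NOP58 form a paired scaffold, and fibrillarin, the product of FBL, adds methyl groups to the ribose. In box H/ACA particles dyskerin, the product of DKC1, turns uridine into pseudouridine, with NHP2, NOP10 and GAR1 as its partners, and the same proteins are part of telomerase. Nucleolin (NCL) and nucleophosmin (NPM1) are RNA-binding proteins and chaperones of the nucleolus that take part in making ribosomes.

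The libraries held between 27645789 and 33689230 counts. Levels are given as CPM, each gene's count relative to the library total, after TMM scaling by a factor that the bulk of the genes sets. POGK itself had 743, 781 and 780 CPM in POGK cells, against 62.6, 77.3 and 66.9 CPM in control cells. VIM and CD44, both high in mesenchymal breast cancer lines, were at 3312 to 3371 and 686 to 702 CPM in POGK cells and at 5451 to 6872 and 772 to 909 CPM in control cells, and ESR1 was at most 0.20 CPM in POGK cells and 0.32 CPM in control cells. Of 12 markers of other cell types, 4 were in the table (PTPRC, CD14, PECAM1 and EPCAM), with a summed level of 6.04 to 6.75 CPM in POGK cells and 5.92 to 8.12 CPM in control cells. The sum covers changes in both directions: PTPRC, the leukocyte marker CD45, rose to 1.66 ± 0.30 CPM in POGK cells, against 0.53 ± 0.22 CPM in control cells (SD, n = 3 each; edgeR adjusted p = 0.0015). CD14, of monocytes, and PECAM1, of endothelium, fell, with log2 fold changes of -0.98 and -0.39 (edgeR adjusted p = 0.0281 and 0.0433), and EPCAM, of epithelium, did not pass the filter on low counts. The part of these markers in the results was not tested. The control libraries stood further apart than the POGK libraries: a chi-square value per gene between pairs of libraries ran from 1.36 to 2.62 among POGK libraries and from 22.5 to 49.7 among control libraries. Less of an mRNA per cell and fewer cells that express it cannot be told apart in such libraries.

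The letters around the annotated transcript starts of 6 members are shown first. They were picked after the values were seen, so the grouping they show is a description and no test. FBL and NPM1, the members that did not rise, have a kind of annotated start that the other 4 shown lack at the base annotated. The starts used in these cells are not known. Many mRNAs of the translation machinery begin with a C followed by an unbroken run of pyrimidines, known as a terminal oligopyrimidine (TOP) start, through which mTORC1 controls their translation. Each line holds 60 bases before and 20 bases from the start (RefSeq, GRCh38.p14), read on the gene's strand, with capitals for a pyrimidine run that opens with C at the start and for the palindrome CACGTG, a motif bound by MYC-type factors.
FBL (chr19:39846360-39846439, minus strand): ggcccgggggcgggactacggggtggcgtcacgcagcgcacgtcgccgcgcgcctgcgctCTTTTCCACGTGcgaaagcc
NPM1 (chr5:171387789-171387868, plus strand): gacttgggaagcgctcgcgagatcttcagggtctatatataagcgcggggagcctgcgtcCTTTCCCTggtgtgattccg
NCL (chr2:231464465-231464544, minus strand): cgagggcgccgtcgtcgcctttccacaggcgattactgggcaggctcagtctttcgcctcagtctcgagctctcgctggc
NOP56 (chr20:2652572-2652651, plus strand): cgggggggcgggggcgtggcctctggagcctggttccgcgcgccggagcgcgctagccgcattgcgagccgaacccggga
DKC1 (chrX:154762804-154762883, plus strand): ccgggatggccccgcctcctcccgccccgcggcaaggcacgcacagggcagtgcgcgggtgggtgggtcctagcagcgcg
NOP10 (chr15:34343117-34343196, minus strand): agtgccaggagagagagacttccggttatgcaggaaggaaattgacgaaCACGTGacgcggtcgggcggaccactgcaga

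In FBL the run of 7 pyrimidines shares its last base with a CACGTG, and in NPM1 the run is 8 bases long. NPM1 has a further annotated start upstream, at 171387116, which has no such run. The table held starts for 8 of the 10 members, all but NOP58 and SNU13.

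Of the 10 members, 8 rose in POGK cells, 1 fell and 1 did not pass the test at an edgeR adjusted p below 0.05. Among all 15889 genes tested, 32.7% rose and 33.3% fell, so 66.0% were called in either direction. With library size as the only scaling, 6575 genes rose and 3925 fell, against 5202 and 5285 with TMM, and the median of all genes lay at 0.19 on the log2 scale. The median log2 fold change of POGK over control cells was 0.77 over the members and 0.0025 over all genes tested. NOP58, NOP56, DKC1, GAR1 and NCL had log2 fold changes from 0.96 to 1.23, and NOP10, SNU13 and NHP2 from 0.30 to 0.59. FBL and NPM1 were at -0.15 and -0.31, and FBL turned positive with library size as the only scaling. CPM ranges of POGK and control libraries did not overlap for 9 of the 10 members, all but FBL, where 73.7% of all genes tested did not overlap. All 10 passed the filter on low counts.

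**Figure D1:**
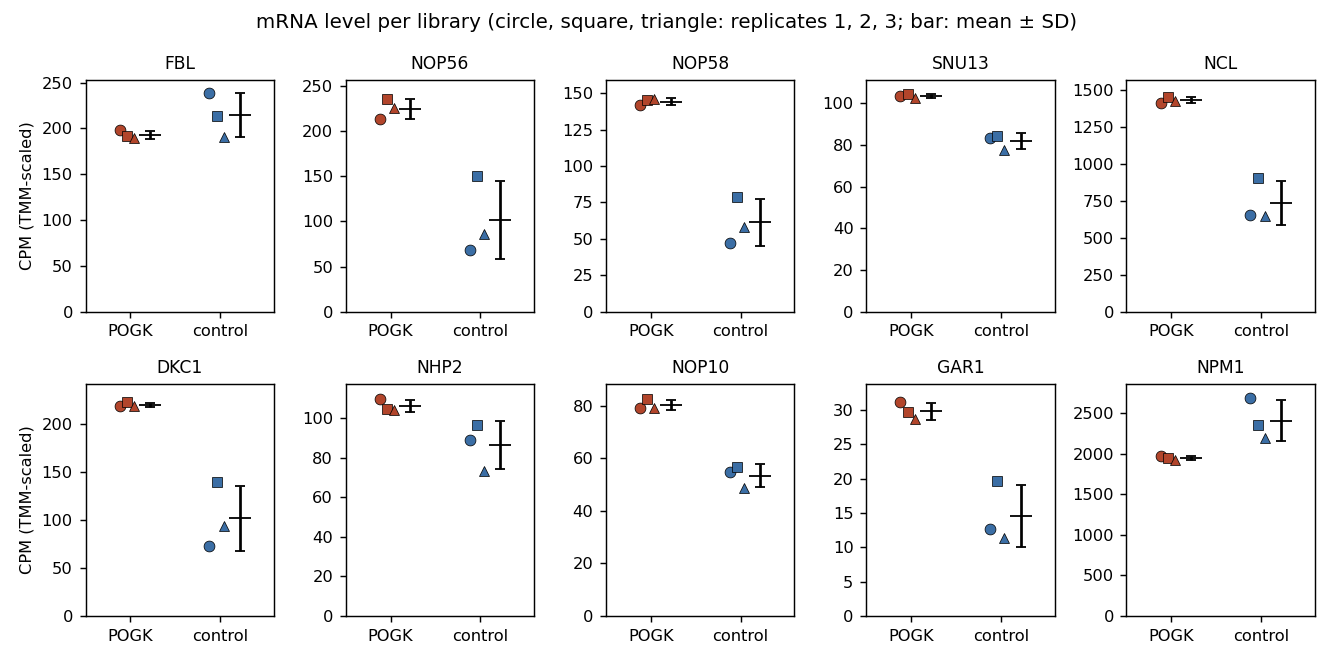
TMM-scaled CPM (vertical axis, from 0) of each gene in the 3 POGK libraries (red, left) and the 3 control libraries (blue, right), with the mean and SD beside them. POGK libraries lie close together in every panel, while control libraries spread, most of all for NOP56 at 68.7 to 151 CPM.

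The box C/D genes split. NOP58 (ENSG00000055044; hg38 chromosome 2, 202265736 to 202303661, plus strand) had 142, 145 and 146 CPM in POGK cells, against 46.9, 78.8 and 58.4 CPM in control cells. All POGK libraries were above all control libraries, and control replicate 2 was the closest to them. The log2 fold change was 1.23 ± 0.16 (SE; edgeR adjusted p = 1.99e-04). Its scaffold partner NOP56 (ENSG00000101361; chromosome 20, 2652593 to 2658393, plus strand) had 213, 235 and 225 CPM in POGK cells and 68.7, 151 and 85.8 CPM in control cells. The groups did not overlap, and control replicate 2 again stood highest of the controls. The log2 fold change was 1.14 ± 0.25 (SE; edgeR adjusted p = 0.0039), and it was 1.54 without control replicate 2.

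SNU13 (ENSG00000100138; chromosome 22, 41673933 to 41690504, minus strand), which also binds the U4 spliceosomal RNA, moved less than the scaffold pair. It had 104, 104 and 102 CPM in POGK cells, against 83.4, 84.4 and 77.7 CPM in control cells. The groups did not overlap, and both were tight. Its log2 fold change was 0.34 ± 0.06 (SE; edgeR adjusted p = 0.0014). SNU13 overlaps C22orf46P, a transcribed pseudogene on the opposite strand, over 1628 bases. Over the 6 libraries SNU13 had 17542 counts and C22orf46P 4156, and as the strand setting of the counting is not known, their reads cannot be told apart in the shared stretch. C22orf46P rose too, with a log2 fold change of 0.97 (edgeR adjusted p = 1.63e-04).

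FBL (ENSG00000105202; chromosome 19, 39834458 to 39846379, minus strand), the methyltransferase of the particle, was the exception. It had 198, 192 and 190 CPM in POGK cells, against 239, 214 and 190 CPM in control cells. The lowest control library, replicate 3, lay between POGK libraries, so the groups overlapped. The log2 fold change of -0.15 ± 0.09 did not pass (SE; edgeR adjusted p = 0.161). It was 0.05 with library size as the only scaling, and -0.23 and called without control replicate 3 (edgeR adjusted p = 0.0339).

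All 4 box H/ACA genes rose. DKC1 (ENSG00000130826; chromosome X, 154762742 to 154777689, plus strand) had 219, 222 and 219 CPM in POGK cells, against 72.8, 139 and 93.4 CPM in control cells. The POGK libraries differed by less than the width of the control range, and control replicate 2 was again the highest control. The log2 fold change was 1.11 ± 0.20 (SE; edgeR adjusted p = 0.0013). GAR1 (ENSG00000109534; chromosome 4, 109815510 to 109824740, plus strand), which helps the particle to turn over its substrate RNA, had 31.2, 29.7 and 28.7 CPM in POGK cells and 12.7, 19.7 and 11.3 CPM in control cells. It rose 2.04-fold without overlap, at an edgeR adjusted p of 0.0011.

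NOP10 (ENSG00000182117; chromosome 15, 34339159 to 34343180, minus strand), the smallest protein of the particle, had 79.2, 82.5 and 79.3 CPM in POGK cells, against 54.9, 56.8 and 48.7 CPM in control cells. Its log2 fold change was 0.59 ± 0.08 with no overlap (SE; edgeR adjusted p = 1.83e-04). NHP2 (ENSG00000145912; chromosome 5, 178149463 to 178153894, minus strand), which like SNU13 belongs to the L7Ae family of RNA-binding proteins, had 110, 105 and 104 CPM in POGK cells, against 89.1, 96.6 and 73.0 CPM in control cells. The highest control library lay just under the POGK libraries. It rose 1.23-fold at an edgeR adjusted p of 0.0252, and the call was lost without any 1 of the POGK libraries, at adjusted p-values from 0.0526 to 0.0828. In the authors' deposited table NHP2 had an adjusted p of 0.0729, the only member besides FBL above 0.05 there. NHP2 shares 1106 bases with RMND5B on the opposite strand, with 18209 counts for NHP2 and 4116 for RMND5B over the 6 libraries. RMND5B rose as well, with a log2 fold change of 0.45 (edgeR adjusted p = 0.0066).

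The pair of abundant nucleolar proteins went opposite ways. NCL (ENSG00000115053; chromosome 2, 231453531 to 231483641, minus strand) had 1413, 1451 and 1423 CPM in POGK cells, against 653, 904 and 647 CPM in control cells. The groups did not overlap, and control replicate 2 was the highest control. The log2 fold change was 0.96 ± 0.13 (SE; edgeR adjusted p = 2.43e-04). NPM1 (ENSG00000181163; chromosome 5, 171387116 to 171411810, plus strand) had 1971, 1955 and 1928 CPM in POGK cells, against 2690, 2351 and 2197 CPM in control cells. Here all control libraries were above all POGK libraries, and control replicate 1 was the highest.

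NPM1 fell by 0.31 on the log2 scale with a standard error of 0.10 (edgeR adjusted p = 0.0205). The call was lost with library size as the only scaling, at -0.11, and without any 1 of the POGK libraries, at adjusted p-values from 0.0766 to 0.0947. NPM1 has many processed pseudogenes, and 5 were in the table, with 0.668 to 0.806% as many counts as NPM1 in each library. The most abundant of them, NPM1P27, averaged 12.2 ± 1.46 CPM in POGK cells and 15.6 ± 1.23 CPM in control cells (SD, n = 3 each). NPM1P27 fell too, with a log2 fold change of -0.35 (edgeR adjusted p = 0.0274), and reads of NPM1 and its copies may be mixed. NPM1P9 rose, at a mean of only 0.44 CPM in POGK cells and 0.11 CPM in control cells.

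**Figure D2:**
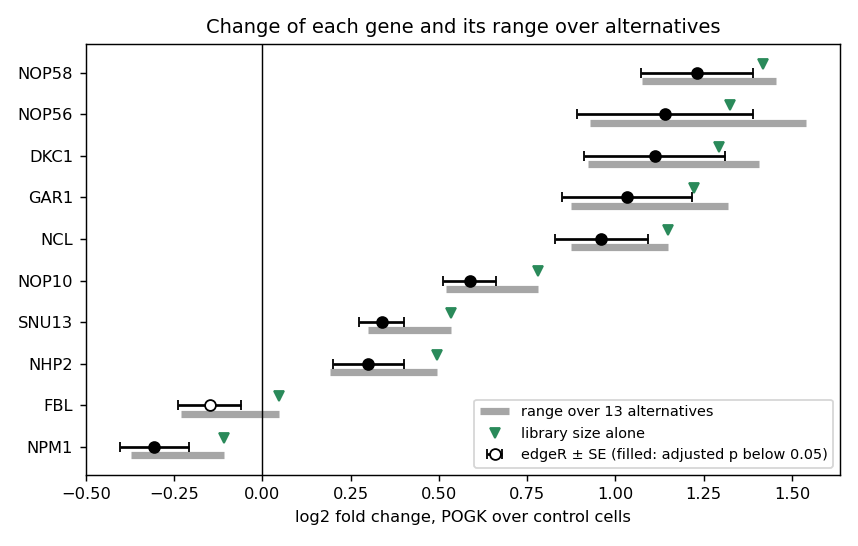
Log2 fold change of POGK over control cells (horizontal axis) for each gene, with its standard error (points; filled where the edgeR adjusted p was below 0.05), its range over the 13 alternatives (grey) and its value with library size alone (triangle). NOP58, NOP56, DKC1, GAR1 and NCL lie near 1, NOP10, SNU13 and NHP2 between 0.30 and 0.59, and FBL and NPM1 at -0.15 and -0.31, with FBL at 0.05 under library size alone.

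The control libraries differed among themselves in the levels of the members. Control replicate 2 held the highest control level of 8 members, those that rose, and control replicate 1 that of FBL and NPM1. This order was not particular to the members. In control replicates 1, 2 and 3, RUVBL1 had 36.6, 74.0 and 45.4 CPM and RPL3 had 3564, 2941 and 2869 CPM. COIL, which rose, differed, with 26.4, 25.3 and 28.5 CPM. The share over all genes was not counted. The range of the 3 libraries was between 1.65% (DKC1) and 9.75% (NOP56) of the mean in POGK cells, and between 8.20% (SNU13) and 80.5% (NOP56) of the mean in control cells. The test fitted 1 spread per gene to both groups, so the p-values rest on a pooled spread. What sets control replicate 2 apart was not tested.

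Ratios of partner mRNAs within a library do not depend on the scaling between libraries. NCL had 0.717, 0.743 and 0.738 reads per NPM1 read in POGK cells, against 0.243, 0.385 and 0.295 in control cells. The mean ratio was 2.38 times as high in POGK cells, and the groups did not overlap. FBL had 1.40, 1.32 and 1.30 reads per NOP58 read in POGK cells and 5.09, 2.71 and 3.26 in control cells, so the mean ratio was 2.75 times as high in control cells. SNU13 to NOP58 stood at 0.732, 0.719 and 0.701 in POGK cells, against 1.78, 1.07 and 1.33 in control cells, and again the groups were apart.

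Within the H/ACA particle the ratio of NHP2 to DKC1 averaged 0.483 ± 0.017 in POGK cells and 0.900 ± 0.284 in control cells (SD, n = 3 each), and that of NOP10 to DKC1 averaged 0.365 ± 0.0050 in POGK cells and 0.561 ± 0.177 in control cells. Neither pair of groups overlapped. The ratio of GAR1 to DKC1 was 0.136 ± 0.0060 in POGK cells and 0.146 ± 0.027 in control cells, with overlapping groups. NOP56 to NOP58 overlapped as well, at 1.56 ± 0.057 in POGK cells and 1.62 ± 0.256 in control cells. In all, 5 of 7 ratios did not overlap. The CPM ranges of 73.7% of all genes tested did not overlap, but that share is of single genes, and none was counted for ratios. In the 4 ratios within a particle that did not overlap, POGK cells had more NOP58 or DKC1 reads per read of the partner than control cells. All ratios but NCL to NPM1 have NOP58 or DKC1 as denominator, so this shared direction restates the fold changes given above.

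**Figure D3:**
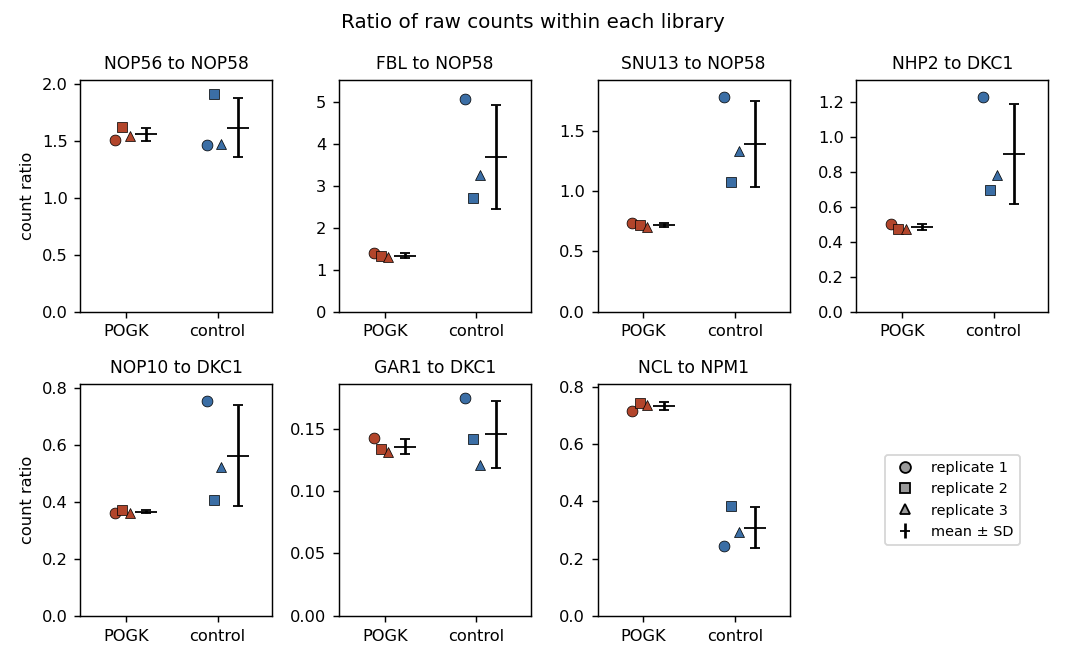
Ratio of the raw counts of 2 genes within each library (vertical axis, from 0) for POGK (red, left) and control libraries (blue, right), with mean and SD. Groups are apart in 5 panels and overlap for NOP56 to NOP58 and GAR1 to DKC1.

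Together the members took 0.476, 0.486 and 0.477% of all counts in POGK cells and 0.355, 0.393 and 0.335% in control cells. NCL and NPM1 made up most of this, with a mean share of 0.362 ± 0.0037% in POGK cells and 0.294 ± 0.019% in control cells (SD, n = 3 each). The box H/ACA genes took 0.0467 ± 0.00050% in POGK cells and 0.0240 ± 0.0052% in control cells. The box C/D genes took 0.0712 ± 0.0015% in POGK cells and 0.0430 ± 0.0066% in control cells.

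Levels of different genes were compared per kilobase of exon. In POGK cells the order of CPM per kilobase was NPM1, NCL, FBL, NHP2, NOP10, NOP56, NOP58, SNU13, DKC1 and GAR1, and only NOP56 and NOP58 did not differ beyond their spread as neighbours. In control cells it was NPM1, FBL, NCL, NHP2, NOP10, SNU13, NOP56, NOP58, DKC1 and GAR1. There FBL and NCL overlapped, as did each neighbouring pair from SNU13 down to GAR1. NPM1 stood at 235 ± 2.61 CPM per kilobase in POGK cells and 290.3 ± 30.4 in control cells, and GAR1 at 15.2 ± 0.64 in POGK cells and 7.42 ± 2.29 in control cells (SD, n = 3 each). The levels, the gaps between genes and the middle of the order depend on the length used. The MANE Select transcript was used in place of all annotated exons, a choice made after seeing the data. DKC1 then stood in place 7 in POGK cells and 8 in control cells, while NPM1 stayed first and GAR1 last in both groups. NPM1 was then at 1478 ± 16.4 CPM per kilobase and NCL at 364 ± 5.09 in POGK cells. In control cells they were at 1828 ± 191 and 187 ± 37.4 (SD, n = 3 each).

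The mRNAs of the proteins that assemble snoRNPs mostly rose, as did those of the core proteins other than FBL. Of 10 assembly factor genes, 8 rose, 1 fell and 1 was not called, and the median log2 fold change was 0.62. Among all genes tested, 32.7% rose and 33.3% fell. RUVBL1, an ATPase that remodels the immature particles, rose 2.96-fold, to 154 ± 4.37 CPM in POGK cells, against 52.0 ± 19.5 CPM in control cells (SD, n = 3 each; edgeR adjusted p = 4.03e-04). Its partner RUVBL2 rose 1.42-fold. RPAP3, which with PIH1D1 links these ATPases to the chaperone HSP90, rose 1.81-fold, whereas PIH1D1 did not pass, with 41.2 ± 1.16 CPM in POGK cells and 39.6 ± 3.06 CPM in control cells. SHQ1 and NAF1, the H/ACA chaperones, rose 1.92-fold and 1.82-fold. ZNHIT6, a box C/D assembly factor, rose 1.38-fold, while ZNHIT3 fell, with a log2 fold change of -0.40 ± 0.08 (SE; edgeR adjusted p = 0.0026).

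NUFIP1, a box C/D adaptor, and NOPCHAP1, a chaperone of NOP58, passed narrowly, at edgeR adjusted p-values of 0.0435 and 0.0415, and each lost its call in 6 of the 13 alternatives, among them leaving out control replicate 1 or 3 or any POGK library. NUFIP1 had 16.8 CPM in control replicate 2, against 7.33 and 8.05 CPM in the other control libraries. Over the alternatives the number of assembly factors called higher ran from 6 to 9.

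Of 11 genes for snoRNP scaffolds and the capping and transport of their RNAs, 9 rose and 1 fell. Of all genes tested, 32.7% rose and 33.3% fell. The median log2 fold change of the 11 genes was 0.98. The 3 most positive were NCBP1 (1.34 ± 0.24), a subunit of the cap-binding complex, WRAP53 (1.28 ± 0.09), which brings H/ACA RNAs to Cajal bodies, and TGS1 (1.23 ± 0.30), which adds methyl groups to the cap of U3 and similar RNAs (log2 fold change ± SE). The 3 most negative were NOP53, a nucleolar factor of the large ribosomal subunit, at -1.56 ± 0.10 and called lower, NCBP2, the cap-binding partner of NCBP1, at 0.10 ± 0.06 and not called, and PHAX, an export adaptor, at 0.25 ± 0.07 and called higher.

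Of 5 genes around telomerase, 4 were in the table and these 4 rose, where 32.7% of all genes tested rose. The log2 fold change was 1.16 for TERT, the reverse transcriptase, 1.28 for WRAP53, 0.68 for PARN, a nuclease that matures the telomerase RNA, and 0.40 for TEP1, a telomerase-associated protein. TERT was scarce, at 1.91 ± 0.33 CPM in POGK cells and 0.83 ± 0.47 CPM in control cells (SD, n = 3 each), and did not pass without control replicate 3 (edgeR adjusted p = 0.0644). TERC was not analysed here. Of the paralogs of members, NPM3 rose 1.54-fold, to 44.2 ± 2.54 CPM in POGK cells, against 28.7 ± 2.93 CPM in control cells (edgeR adjusted p = 4.59e-04). FBLL1 and NPM2 were at most 0.30 CPM in any library and did not pass the filter.

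Of 14 genes tested of partners of nucleolin and nucleophosmin, 9 rose and 2 fell, with a median log2 fold change of 0.75. For this and the other lists, 32.7% of all genes tested rose and 33.3% fell. The lists share genes and are not separate evidence. NPM3 is also in this one, RPL5 and RPL11 are also among the ribosomal protein genes, and WRAP53 is in both the scaffold and the telomerase list. MYBBP1A, a nucleolar protein that binds MYB and p53, rose by 1.52 ± 0.24, LAS1L, of the complex that cuts the second internal spacer of pre-rRNA, by 1.32 ± 0.17, and UBTF, which binds rRNA genes, by 1.18 ± 0.22 (log2 fold change ± SE). The 2 that fell were RPL11 (-1.01 ± 0.11) and RPL5 (-0.91 ± 0.11), ribosomal proteins of the 5S particle. GNL3, the gene for nucleostemin, had 0.04 ± 0.07 and was not called.

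Of 35 genes of the U3 snoRNP and the small subunit processome, the large assembly on early pre-rRNA that U3 organises, 31 rose and 1 fell, with a median log2 fold change of 0.70. UTP4, RRP9 and UTP20 rose most, with log2 fold changes of 1.52 ± 0.31, 1.26 ± 0.19 and 1.24 ± 0.21 (SE). RRP9 binds the U3 RNA itself. IMP3 fell (-0.37 ± 0.11), and EMG1 (-0.22 ± 0.09) and RCL1 (-0.17 ± 0.14) were not called. The 77 genes of cytosolic ribosomal proteins lay on the other side, with 74 lower, 0 higher and a median of -1.02. FBL and NPM1 lay between the medians of these lists, but so did the median of all genes tested, at 0.0025. No test compared the lists.

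**Figure D4:**
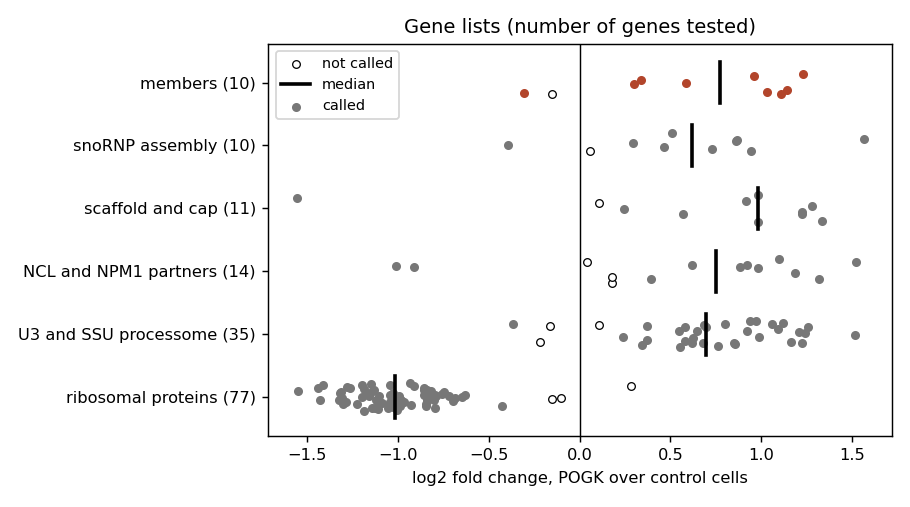
Log2 fold change of POGK over control cells (horizontal axis) for the genes of each list, with the number tested in brackets. Filled points were called (red for the members, grey for the other lists), open points were not, and bars mark the medians: 0.77 for the members, 0.62, 0.98, 0.75 and 0.70 for the next lists and -1.02 for the ribosomal proteins.

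The start sequences were then set against the changes. A C followed by at least 4 pyrimidines at the annotated start was found in 2 of the 8 matched members, FBL and NPM1. Counted in the same way, by gene and at any of its annotated starts, it was found in 7.57% of 10453 tested protein-coding genes, and by single window in 4.07% of all 35116 RefSeq windows. FBL and NPM1 were the 2 members that did not rise in the edgeR test. The 6 matched members without such a start (NOP56, DKC1, NHP2, NOP10, GAR1 and NCL) all rose there. This split rests in part on unsteady values. The calls of NHP2 and NPM1 were lost without any single POGK library, and FBL turned positive with library size as the only scaling. The grouping was noticed after the members' values were seen, and it is a description of the annotated letters, not of the starts used in these cells.

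Across the table, the same start was found for 791 tested protein-coding genes, of which 156 rose (19.7%) and 419 fell (53.0%), with a median log2 fold change of -0.30. Of 9662 genes without it, 3556 rose (36.8%) and 3144 fell (32.5%), with a median of 0.05. Ribosomal protein genes fell both with and without the start: 60 of all 62 matched here were lower, and 44 of the 46 with the start. With ribosomal protein genes left out, the medians were -0.26 for 745 genes with the start and 0.05 for 9646 genes without it. These 2 groups without ribosomal protein genes overlap widely. Their interquartile range ran from -0.69 to 0.18 with the start and from -0.46 to 0.52 without it. FBL and NPM1, at -0.15 and -0.31, lay within both ranges. These values therefore do not place FBL and NPM1 with either group, and the part of the start in their change was not tested.

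**Figure D5:**
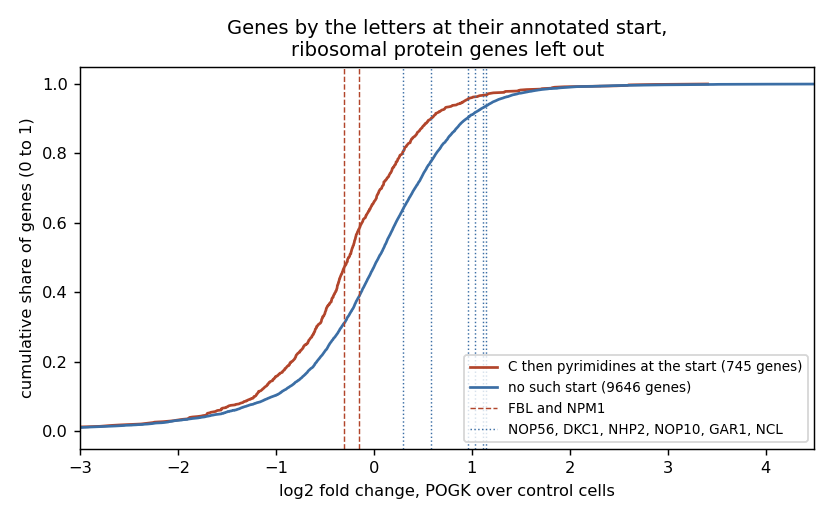
Cumulative share of genes (vertical axis, 0 to 1) by log2 fold change of POGK over control cells (horizontal axis) for 745 genes with C and at least 4 pyrimidines at the annotated start (red) and 9646 genes without (blue), ribosomal protein genes left out. The red curve lies to the left; dashed lines mark FBL and NPM1 and dotted lines the 6 other matched members.

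The palindrome CACGTG, searched over 250 bases before and 50 bases after each start, was found in 3 of the 8 matched members. FBL held it 7 bases into the transcript, NOP10 held it at 170 and 11 bases before the start, and GAR1 held it 32 bases into the transcript of its second annotated start. By gene and at any start, 12.4% of the 10453 tested protein-coding genes held it, and of all single windows 7.26% did. Members with and without it both rose, and FBL with it did not.

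For each member, the protein-coding gene with the most similar pattern over the 6 libraries was found among 9244 genes with at least 10 CPM on average, by the Euclidean distance between centred log2 CPM values. The closest matches were ARPC4 for NHP2 (distance 0.033), DBI for FBL (0.039), C16orf72 for NPM1 (0.042), CACYBP for NCL (0.042), NCS1 for SNU13 (0.044), DTL for NOP58 (0.053), TCP1 for NOP10 (0.067), MRM2 for DKC1 (0.071), UBLCP1 for NOP56 (0.094) and SRM for GAR1 (0.14). MRM2 is a mitochondrial rRNA methyltransferase, SRM makes spermidine, TCP1 is a chaperonin subunit and DTL a replication-coupled ubiquitin ligase adaptor. Among the members themselves, NOP58 and DKC1 were the closest pair (0.19), followed by FBL and NPM1 (0.20), and NOP56 and NPM1 lay farthest apart (2.09).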

How the data were processed

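RNA of 6 libraries, depleted of ribosomal RNA, was sequenced and aligned to hg38, per the labels' protocols. The submitters' processing notes name Trimmomatic, STAR, SAMtools, deepTools and featureCounts without versions. The annotation and the strand setting of the counting step are not given. The authors deposited raw counts per Ensembl gene for 18398 genes (lowest total 21), and beside them a signal value per library that equals the count over a size factor, as the values show. The authors' deposited log2 fold changes (POGK over control), their errors, test scores and p-values come from a tool that is not stated. These were used only where that table is named.

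Counts were tested with edgeR 4.0.16 in R 4.3.3 (quasi-likelihood, robust, TMM, default filter on low counts, Benjamini-Hochberg over 15889 genes; calls below an adjusted p of 0.05). Each standard error was derived from the F statistic. Positions, lengths and biotypes come from GENCODE release 44 (18264 identifiers matched), start sequences from RefSeq. Alternatives were DESeq2 1.42.0, limma-voom (limma 3.58.1), RLE size factors, library size alone, other filters, a replicate block and each library left out. The script was tested on simulated counts. Members, lists and rules were chosen with earlier results of these data known. The rule for named genes took POGK, all members, paralogs, assembly and telomerase genes, the 3 most positive and negative of the other lists, pseudogenes, snoRNAs inside members and the closest pattern per member. Outside this rule, the text also names cell markers, genes that overlap SNU13 and NHP2, MYC, and COIL and RPL3 as examples of control library levels.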

Additional observations from a re-analysis of the deposited data

How the results depend on the processing

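Over 13 alternatives, 7 of the 10 members kept their direction and their side of the threshold in every one, all but FBL, NHP2 and NPM1. With library size as the only scaling, which put the median over genes at 0.19 (log2), FBL was at 0.048, NPM1 at -0.11 and not called, and 0 members and 0 processome genes were called lower. It also turned the sign of 3 genes that were not called, RCL1 (0.025), DBI (0.066) and NPM1P6 (0.10). With each library left out in turn, FBL ran from -0.23 to -0.063, NHP2 from 0.19 to 0.39 and NPM1 from -0.37 to -0.22, and the number of members called lower ran from 0 to 2 and of processome genes called lower from 0 to 2. NHP2 and NPM1 lost their calls without any 1 POGK library. A filter of 1 CPM in 3 libraries gave 2 processome genes called lower. Counted against protein-coding genes without mitochondrial ones, the members took 0.511% of counts in POGK cells. Deviations of same-numbered POGK and control libraries had correlations of 0.087, 0.041 and 0.0028, against -0.089 to 0.046 for libraries of different numbers. With 3 libraries a group, these small values do not settle whether the numbers pair libraries. The replicate block gave 5136 genes higher and 5103 lower, against 5202 and 5285 without it, and kept the calls of all 10 members, with NPM1 at -0.30 and FBL at -0.14. Of 47 other tested genes named by the rule, 32 kept their side in each alternative that tested them, which for NPM1P9 was 12 of the 13. The cause of these changes was not tested. With 3 libraries a group and a wide control spread, small differences such as that of FBL cannot be placed on either side of 0.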

Other observations

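The members host snoRNAs in their introns: 14 are annotated inside members on the same strand, 5 of them in NOP56, 4 in NOP58, 3 in NCL and 2 in DKC1. Only 2 of the 14 were in the table, both in NCL. SNORA75 had 1, 5 and 4 counts in POGK libraries and 6, 0 and 6 in control libraries, and SNORD20 had 7, 3 and 0 counts in POGK libraries and 5, 9 and 7 in control libraries. At these counts no change with NCL was detectable, and neither passed the filter.

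Of 1298 tested protein-coding genes with CACGTG in their start window, 38.1% rose and 33.3% fell in POGK cells. Of 9155 genes without it, 35.1% rose and 34.2% fell. The medians of the log2 fold change were 0.05 and 0.01. MYC, whose product binds this motif, was at 394 to 408 CPM in POGK cells and 489 to 662 CPM in control cells. The part of MYC in the values of these genes was not tested.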
